A study of Homo sapiens with 11 samples.

Results

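NLK knockdown in T47D-TamR was followed in 3 of the 11 samples of the series, chosen by their labels. They are the library labelled siCtrl and those labelled siNLK type 1 and siNLK type 2. T47D-TamR is a line derived from the estrogen receptor positive breast cancer line T47D by continuous passage in tamoxifen, an antiestrogen. Poly(A) RNA was sequenced, and reads were counted per gene. All cells were deprived of estrogen for 48 h in stripped serum. The siRNA cultures were then reverse transfected for 72 h at 10 nM, siCtrl with a pool of non-targeting siRNAs and each siNLK culture with a single duplex against NLK, so that a pool was compared with single duplexes. Which supplier's version of siRNA 1 was used is not stated, and types 1 and 2 were tied to siRNAs 1 and 2 of the protocol by their numbering alone. Another 4 T47D-TamR libraries carried no NLK siRNA. They were siCtrl with 0.5 µM tamoxifen and, with no siRNA named in their labels, the solvent DMSO, DMSO with 0.5 µM tamoxifen, and VX-702 at 0.5 µM, an inhibitor of p38α MAP kinase. These last 3 are called the drug arm. The line BT483 supplied 4 libraries: siCtrl, siNLK type 1, siNLK type 2 and siCtrl with tamoxifen. Every group held 1 library, and the labels name 2 different reagents for the RNA extraction.

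Nemo-like kinase (NLK) is an atypical member of the MAP kinase family. It phosphorylates transcription factors, among them TCF/LEF factors of the Wnt pathway, the Notch intracellular domain and FOXO proteins, and in doing so changes what those pathways switch on. An siRNA guide strand directs the cleavage of a fully matching mRNA. Bases 2 to 8 of the guide, its seed, can also lower other mRNAs that carry a match in the 3′ untranslated region (UTR), as a miRNA does. Long duplex RNA is a known trigger of the interferon response, in which IRF and STAT factors switch on antiviral genes.

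The guide strands are shown because the 2 duplexes share no seed, so that a seed match separates them. They are the complements of the sense strands given in the protocol, and capitals mark the seed.
siRNA 1 guide: uCUUGGAUcuguuacugac
siRNA 2 guide: uAGUCUUCaaauucagcuc
Both sense strands of 19 bases matched NLK and the transcripts of no other gene in GENCODE 29 (GRCh38). The sites are shown with 5 bases to each side, the siRNA target in capitals, on the plus strand. The first lies at chr17:28122603-28122621, in coding exon 2 of 11 of the NLK transcript. The second lies at chr17:28196045-28196063, in the 3′ UTR in exon 11.
NLK site 1: gtctgGTCAGTAACAGATCCAAGAgatgg
NLK site 2: gatctGAGCTGAATTTGAAGACTAttaat

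Total counts in T47D-TamR were 25355025 with siCtrl, 26442260 with type 1 and 23716207 with type 2, and between 14637083 and 26915863 over all libraries. Levels are given as CPM, counts relative to the library total, scaled by TMM factors, and differences as log2 ratios of CPM with a prior count of 2. Luminal breast epithelial markers were high in all 7 libraries, GATA3 at 485 to 685 CPM, FOXA1 at 262 to 379 CPM and KRT8 at 2113 to 3222 CPM. ESR1, the estrogen receptor gene, stood at 20.7 to 32.5 CPM, against 120.6 to 153 CPM in BT483. Its classical target genes TFF1 and GREB1 were under 1 CPM in every T47D-TamR library, and PGR reached 0.868 CPM at most. The summed level of the leukocyte and endothelial list was 4.67 to 9.29 CPM, with 0 of its 20 genes at 5 CPM or more. Several fibroblast genes were low everywhere but differed between libraries. POSTN stood at 1.90 CPM with siCtrl, 5.23 with type 1 and 3.69 with type 2, against 0 to 0.400 CPM in the other 4 T47D-TamR libraries. COL1A2 stood at 2.18, 6.56 and 4.17 CPM against 0 to 0.360, and VIM at 1.59, 2.295 and 2.301 CPM against 0 to 0.194. These traces set the 3 siRNA libraries without tamoxifen apart from the others, and their part in the results below was not tested. Over the whole fibroblast and mesenchymal list of 25 genes the summed level was 328.5, 397 and 465 CPM in the 3 libraries and 384.5 to 590 CPM in the other 4.

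NLK mRNA was low in both knockdown libraries and in no other. It stood at 29.3 CPM with siCtrl, 10.35 CPM with type 1 and 12.2 CPM with type 2. The other libraries had 29.6 CPM (siCtrl with tamoxifen), 32.8 (DMSO), 28.1 (VX-702) and 33.2 CPM (DMSO with tamoxifen). The knockdown libraries did not overlap with the other 5, the gap on the log2 scale being 1.20. Type 1 left 35.4% of the siCtrl level (95% interval 30.6 to 40.8) and type 2 41.7% (36.2 to 47.9), and these intervals overlap. Such intervals cover counting error only, as each level came from 1 library. PCR copies of 1 molecule were not told apart by identifiers, so even that error may be understated. In bulk RNA, fewer cells that express a gene and less RNA per cell cannot be told apart.

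The test across genes asked which of 24023 genes differ between the 2 NLK siRNA libraries and the control siRNA level of T47D-TamR. That level was fitted from siCtrl and from siCtrl with tamoxifen, the latter less a tamoxifen effect shared with the drug arm. The fitted fold changes are therefore not plain ratios to siCtrl. Both duplexes served as replicates of the knockdown, and all 11 libraries shared 1 estimate of the spread. For NLK the log2 fold change was -1.38 (SE 0.24, lower in 2 of 2 libraries), which did not pass the quasi-likelihood test of edgeR after Benjamini-Hochberg adjustment (adjusted p = 0.333). Without a filter on low counts the adjusted p was 5.97e-06, and with DESeq2 it was 0.0121. Over the other alternatives it ran from 0.0519 to 1. The labels do not say whether libraries came from separate cultures, and no group had a replicate library. The spread came from differences between the duplexes in each line and between the tamoxifen effects of the T47D-TamR siRNA and drug arms. The p-values reflect that spread among these libraries alone, part of which may be technical.

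edgeR's test called 1 gene, or 0.00416% of those tested, and 1371 had an unadjusted p under 0.05. It was the histone pseudogene H2AFZP3 (chromosome 13, 99215372 to 99215758), with a log2 fold change of -3.21 (SE 0.41, lower in 2 of 2 libraries, adjusted p = 0.0396 by edgeR). Its level was 18.6 CPM with siCtrl, 1.65 with type 1 and 1.65 with type 2. The libraries without NLK siRNA had 3.255 CPM (siCtrl with tamoxifen), 1.24 (DMSO), 1.93 (VX-702) and 0.767 CPM (DMSO with tamoxifen). Only the siCtrl library was high, and the knockdown libraries lay among the rest. Without that library the call was lost (log2 fold change -1.73, adjusted p = 1 by edgeR). It was lost also without T47D-TamR type 2 (0.164), VX-702 (0.059), BT483 type 1 (0.0518) or BT483 type 2 (0.0572). Reads of a pseudogene may come from its parent gene, so this value is uncertain. DESeq2 called 7 genes, all lower, namely NLK, TCF4, TOP2A, APC, DST, DBT and MAN1A2. Limma on the deposited log2 values called 0, with 1164 at an unadjusted p under 0.05.

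The ratios to siCtrl moved with the base composition of the transcripts. Among 11648 genes with a level of at least 5 CPM and a known transcript, split into 5 groups of equal size by GC content, the lowest group (23.1 to 40.8% GC) had a median log2 ratio to siCtrl of -0.25 with type 1 and -0.32 with type 2. The highest group (57.8 to 74.7% GC) had 0.25 and 0.26. Both duplexes gave nearly the same slope, and a library with no NLK siRNA gave a steeper one: siCtrl with tamoxifen against siCtrl ran from -0.41 to 0.31. VX-702 against DMSO ran from -0.30 to 0.22, and DMSO against siCtrl from -0.11 to 0.13. Against siCtrl with tamoxifen the slope turned, from 0.18 to -0.07 with type 1 and from 0.105 to -0.05 with type 2. In BT483 the same groups ran from -0.02 to -0.015 (type 1) and from -0.06 to 0.04 (type 2). The 3 ratios to siCtrl share that library, and so their likeness is no independent evidence.

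Transcript length separated the duplexes from each other. From the shortest to the longest of 5 groups the median log2 ratio to siCtrl went from 0.185 to -0.09 with type 1, and from -0.025 to -0.005 with type 2. Type 2 minus type 1, which does not involve the control library, went from -0.19 to 0.10. Spearman's rho across the 11648 genes between GC content and the ratio to siCtrl was 0.563 with type 1 and 0.528 with type 2. For siCtrl with tamoxifen it was 0.731. Genes are not independent replicates, and these values describe the libraries only.

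**Figure D1:**
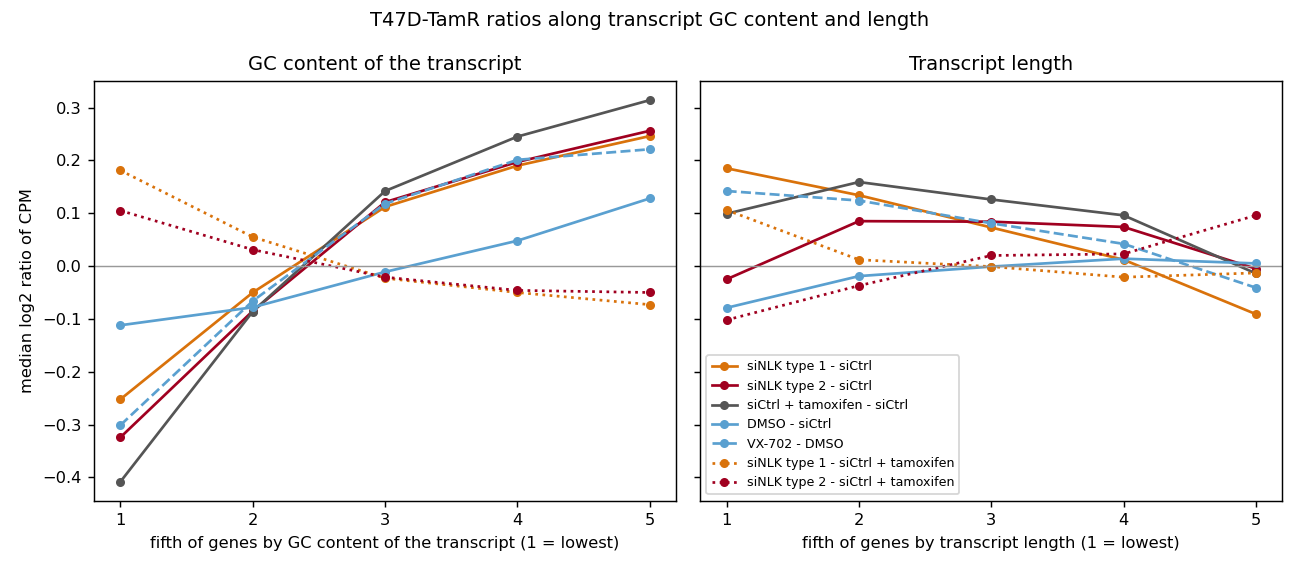
Median log2 ratio of CPM (vertical axis) in each of 5 equal groups of 11648 genes by GC content (left) and length (right) of the longest transcript, for pairs of T47D-TamR libraries. Solid lines against siCtrl rise with GC content whether or not the library carried NLK siRNA; the dotted lines against siCtrl with tamoxifen fall, from 0.18 to -0.07 with type 1.

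Genes moved alike by both duplexes were those at least 2-fold from siCtrl in the same direction with each, among 11741 genes with a mean of at least 5 CPM. There were 18 lower (0.153%) and 2 higher (0.017%), with no test, as each ratio is 1 library against 1 and both share siCtrl. Besides NLK, the lower genes included TOP2A, which untangles replicated DNA, the kinetochore proteins CENPF and CENPE, the condensin subunit SMC2, the centriole protein CEP152 and the chromatin remodeller ATRX. Others were the bHLH factor TCF4, the Wnt pathway scaffold APC, the cytoskeletal linker DST, the DNA polymerase POLK, the glycosyltransferase MGAT4A, ANKRD26, PHF3, FAM111B, FAM133A and LINC00342. The higher ones, TPT1P4 and FP236383.2, stood at 1.59 and 4.12 CPM with siCtrl, the lowest of the 7 libraries in each case. TPT1P4 is a pseudogene whose reads may come from its parent.

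TOP2A stood at 361 CPM with siCtrl, 119 with type 1 and 139 with type 2. DMSO had 382 CPM, and the other 3 had 160 CPM (siCtrl with tamoxifen), 221 (VX-702) and 249 CPM (DMSO with tamoxifen). The knockdown libraries were the lowest of 7, by a gap of 0.20 on the log2 scale. CENPF stood at 130.7 CPM with siCtrl, 55.4 with type 1 and 49.4 with type 2, and siCtrl with tamoxifen, at 38.6 CPM, was lower than both. APC stood at 27.6 CPM with siCtrl, 11.3 with type 1 and 12.6 with type 2, beside 11.55 CPM in siCtrl with tamoxifen. DST had 274, 128 and 131 CPM, and 104 CPM in siCtrl with tamoxifen. In CENPF and DST both knockdown libraries lay above siCtrl with tamoxifen, and in APC it lay between them.

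In 16 of the 18 genes siCtrl and DMSO were the 2 highest of the 7 libraries (88.9%), against 12.2% of all genes. A high rank of siCtrl is partly set by the rule, which asked for it to lie above both knockdown libraries. In 15 of the 18 siCtrl with tamoxifen was itself at least 2-fold below siCtrl, against 261 of all 11741 genes. Their median log2 ratio to siCtrl was -1.17 with type 1, -1.20 with type 2, -1.40 for siCtrl with tamoxifen, -0.92 for VX-702 and 0.04 for DMSO. Their transcripts had a median GC content of 38.3% and a median length of 6410 bases, against 48.0% and 3593 over all genes. After each library was adjusted for transcript length and GC content, 4 genes in all were lower by at least 2-fold with both, of which 3, NLK, TOP2A and CENPF, were among the 18. The adjusted medians of the 18 were -0.87 and -0.89, and most genes no longer reached 2-fold. The 18 were picked for lying at least 2-fold below this siCtrl library, so what was left is partly set by the rule. Against the mean of the 2 siCtrl libraries only NLK was left on the lower side, and 0 genes on the higher.

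**Figure D2:**
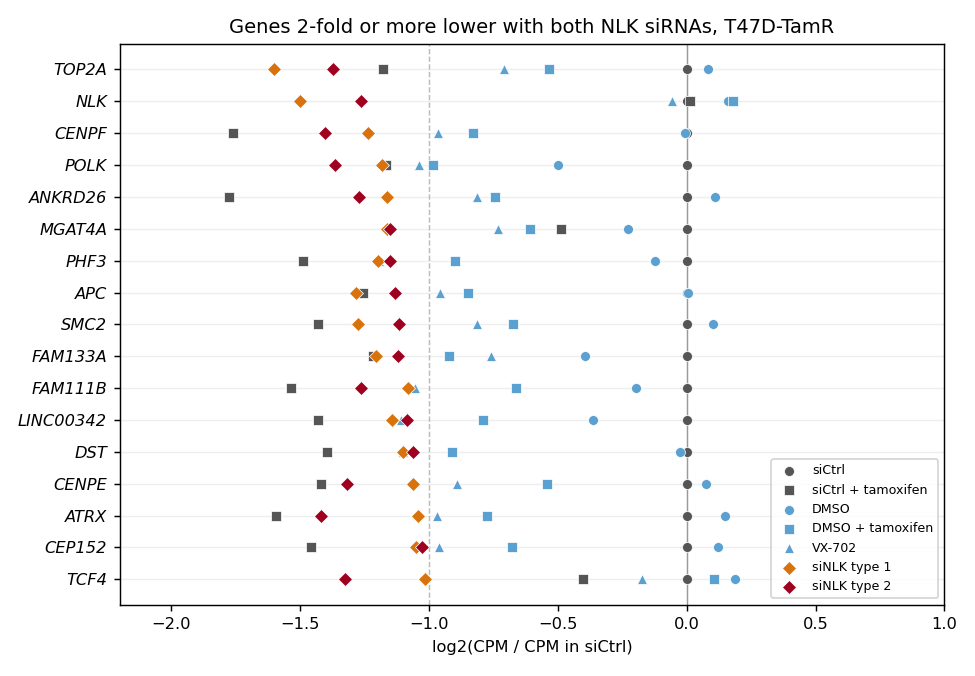
Genes at least 2-fold lower than siCtrl with both NLK siRNAs, 17 of the 18; each marker is 1 T47D-TamR library, and the horizontal axis is the log2 ratio of its CPM to siCtrl. NLK and TCF4 are the genes in which both knockdown libraries stand below all others by at least 0.5; in most of the rest siCtrl with tamoxifen (grey squares) is low too and DMSO (blue circles) lies near siCtrl.

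Genes set apart by both duplexes were found without leaning on 1 control. Both knockdown libraries had to lie below, or above, all of the 5 other T47D-TamR libraries, with a gap of at least 0.5 on the log2 scale. This held for 9 genes on the lower side (0.0767% of 11741) and 12 on the higher side (0.102%). NLK and TCF4 alone met both this rule and the 2-fold rule. TCF4 encodes the bHLH factor E2-2 and is not the Wnt factor that is also called TCF4, whose gene is TCF7L2. It stood at 61.3 CPM with siCtrl, 30.4 with type 1 and 24.4 with type 2. The others ranged from 46.4 CPM (siCtrl with tamoxifen) to 69.8 (DMSO), leaving a gap of 0.61. After the adjustment for length and GC content TCF4 was still set apart but no longer 2-fold lower with both duplexes. On the deposited log2 values TCF4 met neither rule. The fitted log2 fold change was -1.08 (SE 0.20, lower in 2 of 2 libraries), which did not pass edgeR's test (adjusted p = 0.347). In BT483 the gene was at 0.258 CPM at most. TCF7L2 stood at 20.7 CPM with siCtrl, 20.4 with type 1 and 23.4 with type 2.

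Among the other genes on the lower side, DBT encodes a subunit of the branched-chain keto acid dehydrogenase. It stood at 46.4 CPM with siCtrl, 23.9 with type 1 and 22.8 with type 2, and at 40.4 to 46.4 CPM in the other 4. GHR, the growth hormone receptor, stood at 64.4, 22.9 and 34.5 CPM, and at 56.3 to 67.9 CPM in the rest. TGFBR3, a co-receptor for TGF-β, stood at 34.5, 21.9 and 14.15 CPM, and at 31.6 to 34.9 CPM in the rest. The controls of these genes lay close together and the knockdown libraries well below, with GHR lower in type 1 and TGFBR3 lower in type 2. BCAS1, named for its amplification in breast carcinoma, stood at 13.6 CPM with siCtrl, 5.32 with type 1 and 7.77 with type 2, and at 11.4 to 18.3 CPM in the rest. The remaining genes were the kinase anchor AKAP6, the RNA LINC01443 and FAM217B. None of the 9 passed edgeR's test (adjusted p from 0.333 for NLK to 0.859 for AKAP6), and DESeq2 called NLK, TCF4 and DBT.

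The genes on the higher side had gaps of 0.50 to 0.70. After the adjustment for length and GC content IRF1, OASL and SLC15A3 still had a gap of at least 0.5. ISG15 (0.45), CCL5 (0.48), ICAM1 (0.47) and the others with a known transcript fell below it, the lowest being IFITM3 at 0.38. ISG15 is a ubiquitin-like modifier, and it stood at 41.0 CPM with siCtrl, 65.7 with type 1 and 95.5 with type 2. It was at 36.7 CPM in siCtrl with tamoxifen and at 8.40 to 11.6 CPM in the drug arm. OASL, an antiviral protein, stood at 23.8, 41.1 and 82.3 CPM, then 25.3 and 2.76 to 4.72 CPM. IRF1, a transcription factor of the interferon response, stood at 8.25, 12.9 and 18.1 CPM, then 9.105 and 5.685 to 8.42 CPM. ISG15 and OASL thus had 3 levels, lowest in the drug arm, higher with control siRNA and highest with NLK siRNA, while the drug arm of IRF1 overlapped with siCtrl. The chemokine CCL5 stood at 10.6 CPM with siCtrl, 16.9 with type 1 and 18.1 with type 2, and at 1.34 to 2.97 CPM in the drug arm. ICAM1, an adhesion molecule, stood at 12.2, 19.45 and 19.7 CPM, and VX-702 was level with siCtrl at 12.2 CPM. The rest on this side were IFITM3, APOL1, SLC15A3 and PLAAT4, which interferon induces, the keratin KRT17, the polyamine enzyme SAT1 and the stress gene OSGIN1.

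In 9 of these 12 genes both siCtrl libraries lay above all 3 libraries of the drug arm, against 15.1% of all genes. For those 9 the rule came down to lying above the 2 siCtrl libraries. In 11 of the 12 type 2 was higher than type 1, against 5812 of all 11741 genes. None passed edgeR's test, which counts the difference between the duplexes as spread. The adjusted p by edgeR was 0.931 for ISG15, 0.94 for OASL and 0.768 for IRF1. The siRNA and drug arms differ in transfection and in all else done separately, and these cannot be told apart.

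**Figure D3:**
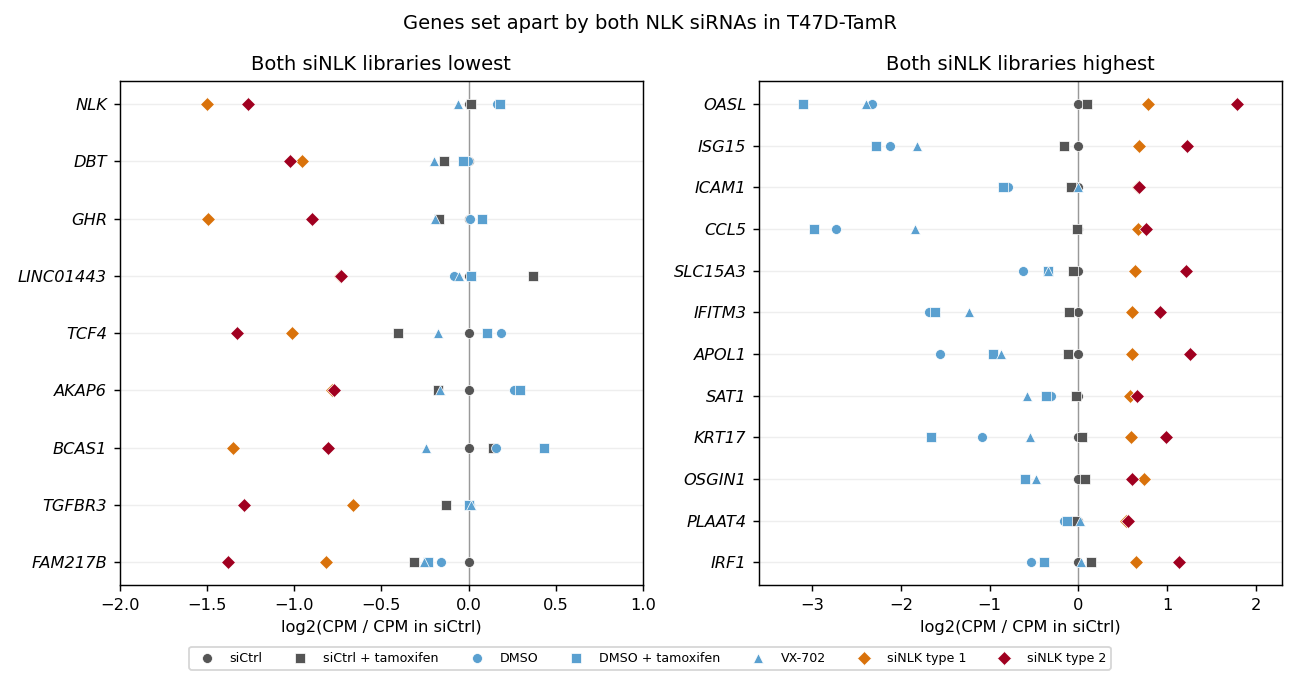
The 9 genes (left) and 12 genes (right) in which both NLK siRNA libraries lie beyond the 5 other T47D-TamR libraries by at least 0.5 on the log2 scale; the horizontal axis is the log2 ratio of CPM to siCtrl, 1 marker per library. On the left all 5 other libraries lie to the right of both diamonds, while on the right panel the 3 libraries of the drug arm (blue) often lie below both siCtrl libraries (grey), as for ISG15 at 8.40 to 11.6 CPM.

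BT483 offered the same duplexes in another line. Of the 12 genes set apart on the higher side, 9 were higher than the BT483 siCtrl with both duplexes, where 28.9% of all genes were. Of the 9 on the lower side, 4 were lower with both, where 31.6% of all genes were. The 4 were NLK, the target itself, DBT, GHR and FAM217B. Among the 18 genes moved alike on the lower side, NLK included, 13 were lower in BT483 with both duplexes and 0 higher with both. The medians of these 18 in BT483 were -0.31 with type 1 and -0.69 with type 2. DBT had log2 ratios of -0.50 and -0.66 in BT483, GHR of -0.48 and -0.58, and FAM217B of -0.60 and -1.04. ISG15 had 0.78 with type 1 and 2.78 with type 2, and OASL 0.32 and 3.04. TGFBR3 and TCF4 were under 1 CPM in every BT483 library, which leaves no comparison there.

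Seed matches were compared with the ratio of type 2 to type 1, which does not use the control library. A match is a run of 7 bases that pairs with the seed, AUCCAAG for siRNA 1 and GAAGACU for siRNA 2. It was sought in the 3′ UTR of the longest coding transcript of each gene. In T47D-TamR, 790 genes with a match to seed 1 alone had a median log2 ratio, type 2 minus type 1, of 0.14. The 1146 genes with a match to seed 2 alone had -0.105, and the 8141 with neither had 0.002. Genes with a match were thus lower, by their median, in the library of the matching duplex. The medians in BT483 were 0.03, -0.14 and 0.01. Adjusted for transcript length and GC content, they were 0.10, -0.14 and 0.005 in T47D-TamR and 0.065, -0.11 and 0.015 in BT483. Genes with a match have longer UTRs, with medians of 3114 and 2820 bases against 1207. The 2493 genes with neither match and a UTR of at least 2000 bases had 0.06 in T47D-TamR and -0.002 in BT483.

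Against siCtrl in T47D-TamR, the median with type 1 was -0.08 for genes matching seed 1 alone (-0.03 adjusted) and 0.10 for genes with neither match (0.05 adjusted). The median with type 2 was -0.15 for genes matching seed 2 alone (-0.10 adjusted) and 0.085 for genes with neither (0.04 adjusted). Genes with neither match and a long UTR had -0.01 with type 1 and 0.04 with type 2 (0.055 and 0.07 adjusted). Of the 8 genes set apart on the lower side besides NLK, 7 had a UTR to search. A match to seed 2 was present in 5 of them (TGFBR3, DBT, GHR, AKAP6 and FAM217B), against 13.8% of all genes searched. A match to seed 1 was present in 2 (DBT and FAM217B), against 10.3%. TCF4 and BCAS1 had neither. Of the 12 genes set apart on the higher side, 11 could be searched and 0 had a match to either seed. Their UTRs differ in length from those of the lower genes, from 62 bases (ISG15) to 2342 (IRF1), against 2454 (GHR) to 9336 (DBT). The shares over all genes searched cover UTRs of any length, and a longer UTR has more places for a match. Genes with neither match had a median UTR of 1207 bases. These shares are thus not matched in length to the genes set apart on either side. Among the 17 genes moved alike on the lower side besides NLK, 15 could be searched, with the same limit. A match to seed 1 was present in 4 and a match to seed 2 in 5. Both seeds were matched in 2, TOP2A and ATRX, against 2.7% of all genes searched. The part of seed matches in the levels of these genes was not tested.

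**Figure D4:**
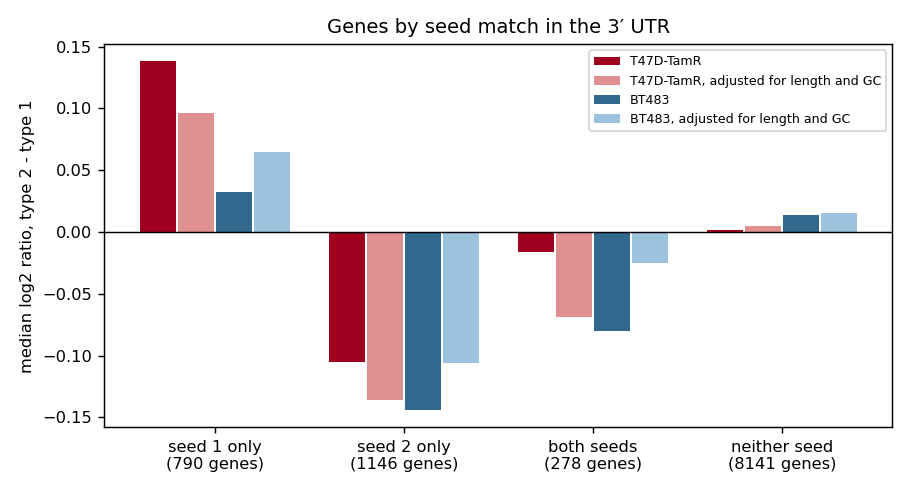
Median log2 ratio of siNLK type 2 to siNLK type 1 (bars, vertical axis) for genes grouped by 7-base seed matches in the 3′ UTR, in both lines, with and without the adjustment for transcript length and GC content. Genes matching seed 1 alone lie above 0, those matching seed 2 alone below 0 (-0.105 in T47D-TamR and -0.14 in BT483), and those with neither near 0.

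Promoters of the genes set apart on the higher side were read because their members include targets of IRF, STAT and NF-κB factors. RefSeq windows of 300 bases (GRCh38.p14) matched 6 of the 12: ISG15, IRF1, IFITM3, OSGIN1, ICAM1 and SAT1. The interferon response element, searched on both strands as GAAA, any 2 bases and GAAA, was in 2 of the 6, and in 2.7% of the 8704 promoters of genes at 5 CPM or more. The STAT element TTCNNNGAA was in 2 of the 6 (6.04% of those promoters), and the NF-κB consensus in 2 (12.9%). Stretches with a motif in capitals are shown to place them beside the levels above, and they run along the strand of the gene.
ISG15, interferon response element: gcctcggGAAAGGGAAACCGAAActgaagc
IFITM3, interferon response element: gGAAAAGGAAActgttgaGAAACCGAAAc
IRF1, NF-κB consensus: ggccagggctGGGGAATCCCgctaagtgtt
ICAM1, STAT element: ggcgcgaggtTTCCGGGAAagcagcaccg
The ISG15 stretch is at chr1:1013377-1013406, where 2 matches overlap, and the IFITM3 stretch at chr11:320885-320913, with 2 matches. The IRF1 stretch is at chr5:132490804-132490833 and the ICAM1 stretch at chr19:10271035-10271063. A match is a description of the letters in this window.

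Gene lists are given by counts and medians, with no test, beside all 11741 genes, of which 41.2% were higher and 28.3% lower than siCtrl with both duplexes. The count used next is of genes set apart by any gap, 9.39% of all genes on the higher side and 5.15% on the lower. The median log2 ratio of all genes was 0.07 with type 1 and 0.05 with type 2. With scaling by library totals it was -0.01 and 0.01.

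Interferon-stimulated genes were set apart on the higher side in 24 of 35, with median ratios to siCtrl of 0.19 with type 1 and 0.95 with type 2. In 34 of the 35 type 2 was higher than type 1, against 5812 of all 11741 genes. In 35 of 35 both siCtrl libraries were above all 3 libraries of the drug arm, against 15.1% of all genes. Being set apart thus came down, for this list, to lying above the 2 siCtrl libraries. The 9.39% of all genes is therefore not a like share. MX1, an antiviral GTPase, stood at 312 CPM with siCtrl, 411 with type 1 and 830 with type 2, beside 75.4 to 110.7 CPM in the drug arm. IFIT1, which binds foreign RNA, stood at 116.6, 125 and 271 CPM. The RNA sensor DDX58 was lower with type 1 (42.2 CPM) than with siCtrl (49.5 CPM) and higher with type 2 (88.7 CPM). The larger values thus belonged to type 2, and 25 of 35 genes were above siCtrl with both duplexes. In BT483 the list medians were 0.66 and 2.02.

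NF-κB target genes were set apart on the higher side in 11 of 14, with medians of 0.48 and 0.855 against siCtrl. Against siCtrl with tamoxifen these were 0.185 and 0.67, and with the adjustment for length and GC content 0.34 and 0.80. TNFAIP3, a feedback inhibitor of NF-κB, stood at 12.4 CPM with siCtrl, 17.9 with type 1 and 34.8 with type 2, and at 7.37 to 14.7 CPM in the rest. RELB, a subunit of the factor, stood at 18.3, 28.1 and 45.3 CPM, and at 13.6 to 24.8 CPM in the rest. NFKBIE, an inhibitor of it, stood at 20.9, 35.0 and 43.7 CPM, and at 21.7 to 30.6 CPM in the rest. In all 3 the knockdown libraries were the highest of 7. The BT483 medians of this list were 0.18 and 0.08.

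ERK feedback genes and immediate early genes were set apart on the higher side in 6 of 10 each. The ERK medians were 0.37 and 0.54 against siCtrl, 0.17 and 0.39 against siCtrl with tamoxifen. DUSP4, a phosphatase of MAP kinases, stood at 9.68 CPM with siCtrl, 16.8 with type 1 and 30.8 with type 2, and at 10.65 to 14.5 CPM in the rest. EPHA2, an ephrin receptor, stood at 36.9, 60.6 and 90.2 CPM, and at 34.7 to 50.4 CPM in the rest. EGFR, the epidermal growth factor receptor, was on the opposite side. It stood at 68.25 CPM with siCtrl, 51.9 with type 1 and 41.2 with type 2, below the 74.9 to 90.9 CPM of the rest. Its ligand HBEGF was higher than siCtrl with both duplexes, at 5.39 CPM with siCtrl, 6.36 with type 1 and 8.77 with type 2.

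Amino acid stress genes under ATF4 were set apart on the higher side in 12 of 28, with medians of 0.465 and 0.25. Against siCtrl with tamoxifen the medians were 0.16 and 0.17. SESN2, which senses leucine, stood at 38.9 CPM with siCtrl, 73.6 with type 1 and 83.8 with type 2, and at 44.4 to 58.5 CPM in the rest. The p53 target list had 7 of 22 on the higher and 2 on the lower side, and AEN, a nuclease, stood at 43.8, 61.0 and 60.3 CPM against 34.0 to 45.5 CPM. TP53INP1, another member, went the other way, at 82.9, 56.4 and 52.9 CPM against 77.4 to 121.9 CPM. The MYC and ribosome biogenesis list had 7 of 24 on the higher and 0 on the lower side, and its medians were 0.22 and 0.09. In BT483 the medians were -0.096 and -0.052 for the ATF4 list and -0.115 and -0.098 for the MYC and ribosome biogenesis list. The p53 target list had 0.127 and 0.237 there.

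In the list of NLK and the p38 family, 3 of 16 genes were set apart on the lower side and 0 on the higher. They were NLK, the stress kinase MAP3K20 and HIPK2, a kinase that acts with NLK. MAP3K20 stood at 191 CPM with siCtrl, 112 with type 1 and 86.9 with type 2, and at 147 to 183 CPM in the rest. HIPK2 stood at 123, 92.5 and 96.4 CPM, and at 131 to 145 CPM in the rest. MAPK14, which encodes p38α, stood at 164 CPM with siCtrl, 205.5 with type 1 and 166 with type 2. Type 1 was the highest of 7, and type 2 lay within the 164 to 190 CPM of the others. Among 13 measured transcription factors that NLK is reported to phosphorylate, 0 were set apart on the higher and 3 on the lower side, such as FOXO3 at 101, 83.8 and 88.0 CPM against 106 to 114 CPM.

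Wnt targets were set apart in 1 of 9, the Notch list in 2 of 8 and the FOXO list in 1 of 16, all on the higher side, with 1 further FOXO gene on the lower side. The Notch list was higher than siCtrl with both duplexes in 8 of 8 and higher than siCtrl with tamoxifen with both in 2 of 8. CCND1, cyclin D1, which the Notch and Wnt lists both hold, stood at 79.55 CPM with siCtrl, 102 with type 1 and 115 with type 2, and at 64.5 to 94.8 CPM in the rest. JAG1, a Notch ligand, stood at 34.2, 40.5 and 69.0 CPM, and at 21.9 to 37.8 CPM in the rest. MYC stood at 7.81, 8.78 and 8.51 CPM, within the 7.74 to 12.1 CPM of the others.

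The condensin list changed sign with the control library. Condensin, cohesin and SMC genes were lower than siCtrl with both duplexes in 17 of 20, with medians of -0.53 and -0.59, and siCtrl with tamoxifen had -0.68. Against DMSO they were lower with both in 19 of 20, with medians of -0.41 and -0.54, and against siCtrl with tamoxifen the medians were 0.14 and 0.10. G2/M genes had -0.10 and -0.38 against siCtrl, -0.24 and -0.46 against DMSO, and 0.14 and -0.135 against siCtrl with tamoxifen. They were set apart on the lower side in 4 of 34. G1/S genes had 0.105 and -0.07 against siCtrl, and of 34 genes 1 was set apart on the higher and 3 on the lower side. The higher one was CCNE1, cyclin E1, at 8.53 CPM with siCtrl, 12.3 with type 1 and 17.1 with type 2, against 6.48 to 9.14 CPM in the rest. In BT483 both duplexes gave lower medians, -0.74 and -1.57 for G2/M and -0.43 and -0.945 for G1/S genes.

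Estrogen response genes had medians of -0.08 and 0.14, and luminal markers -0.01 and 0.25. Luminal markers were lower than siCtrl with tamoxifen with both duplexes in 10 of 18, against 2 of 18 lower than siCtrl. Cholesterol and fatty acid synthesis genes were higher than siCtrl with both in 19 of 31, and lower than siCtrl with tamoxifen with both in 19 of 31. Lysosome and autophagy genes went from 18 of 27 higher to 12 of 27 lower in the same way. For the cholesterol and lysosome lists the direction depended on which control library was used.

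**Figure D5:**
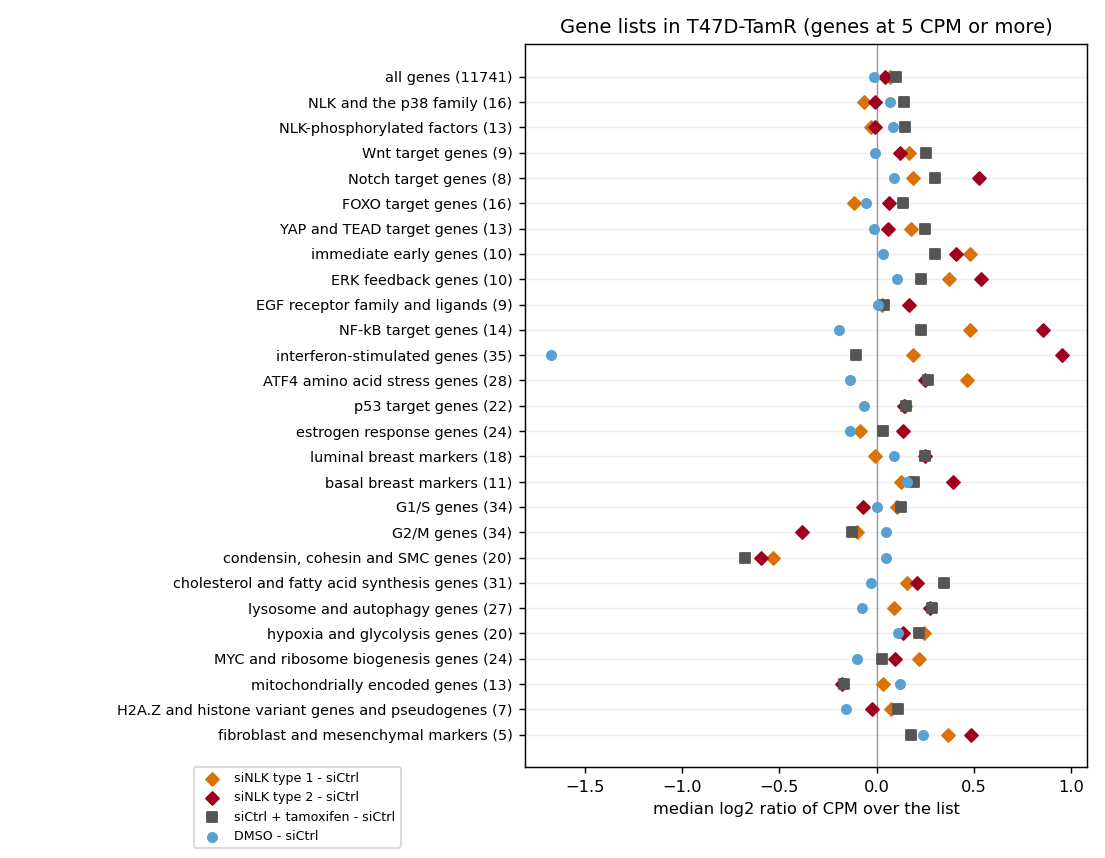
Median log2 ratio of CPM to siCtrl (horizontal axis) for each gene list in T47D-TamR, with the number of genes at 5 CPM or more in brackets; diamonds are the NLK siRNA libraries, grey squares siCtrl with tamoxifen and blue circles DMSO. Both diamonds lie above the grey square for NF-κB targets (0.48 and 0.855 against 0.23), while condensin genes are as low in siCtrl with tamoxifen (-0.68) as with either siRNA.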

How the data were processed

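For each of 11 libraries the authors deposited raw counts of 59087 gene names and a table of log2 TPM values with nearly the same distribution in every library. Reads came from stranded poly(A) libraries, per the labels' protocols, with GRCh38 as the build named in the submitters' processing notes. Aligner and annotation: not given in the sources used here. All columns were matched to samples by name, with 0 left unmapped. A level of 3 counts corresponds to between 0.112 and 0.205 CPM.

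Counts were tested with edgeR 4.0.16 (R 4.3.3): TMM, filterByExpr, robust quasi-likelihood F test, 2-sided, Benjamini-Hochberg adjustment, threshold 0.05. The fit had the context (BT483 siRNA, T47D-TamR siRNA, T47D-TamR drug) as block, knockdown and tamoxifen per line and VX-702, with 3 residual degrees of freedom. The script was tested on simulated data. DESeq2 1.42.0 and limma 3.58.1 on the deposited log2 values were alternatives. Length and GC content came from the longest GENCODE 29 transcript; the adjustment subtracted a spline with 4 degrees of freedom per library.

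Named genes were NLK, the called genes, genes moved alike (lower ones are named beyond the 5 the rule asks for; 1 of the 18 is not reported here), up to 4 per list and 7 fixed genes; genes set apart, DESeq2 calls, marker genes and some list members were named after their values were seen. The members, the 27 lists and the seed and motif searches were chosen with earlier results of these data known. Alternatives were another tool, filter, prior count, scaling, control or fold, the adjustment, and leaving out libraries.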

Additional observations from a re-analysis of the deposited data

Results flagged for a closer look

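Among the genes set apart in T47D-TamR, 2 had the opposite direction in BT483 with both siRNAs. This was 1 of the 12 on the higher side, where 31.6% of all genes were lower with both in BT483. On the lower side it was 1 of the 9, where 28.9% of all genes were higher with both. OSGIN1, induced by oxidative stress, had a mean log2 ratio to siCtrl of 0.67 in T47D-TamR and of -0.39 in BT483. BCAS1 had -1.07 in T47D-TamR and 0.36 in BT483. Both siRNA libraries of one line lay on one side of its siCtrl, and both siRNA libraries of the other line on the opposite side. Each line has 2 siRNA libraries and 1 control, and the difference between the lines was not tested.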

How the results depend on the processing

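NLK was lower with both siRNAs under every setting, its fitted log2 fold change lying between -1.50 and -1.13. edgeR's test called 1 gene, against 108 with no filter on low counts, 7 with DESeq2, and 0 with limma, the length and GC adjustment, at least 10 counts in every library, the 7 T47D-TamR libraries alone or no block for context; without 1 library the counts ran from 0 to 23, the highest without T47D-TamR type 1. Of genes moved alike, 18 were lower and 2 higher. The lower count was 260 at 1.5-fold, 36 at 1 CPM, 11 at 20 CPM, 32 with library totals, 7 with deposited log2 values, 4 with the adjustment, 35 against DMSO, 4 against siCtrl with tamoxifen and 1 against the mean of both siCtrl. The higher count was 68 at 1.5-fold, 17 at 1 CPM, 0 at 20 CPM, 1 with prior count 5, 1 with library totals, 1 with deposited log2 values, 87 against DMSO, 1 against siCtrl with tamoxifen and 0 against the mean of both. Of genes set apart, 12 were higher and 9 lower. The higher count was 5 with deposited log2 values, 7 with the adjustment (3 of them shared), 1102 with any gap and 0 with a gap of 1; the lower count was 3, 12, 605 and 1. Settings chosen after seeing the data gave 32 higher and 30 lower without siCtrl, 35 and 37 without siCtrl and DMSO, and, with 1 siRNA left out, 57 to 197 higher and 86 to 282 lower. The causes were not tested. No paired analysis was possible because each group held 1 library.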
